A study of Danio rerio with 12 samples.

Results

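Photoreceptor and pineal genes were followed through whole-brain arrays of adult zebrafish (Danio rerio). The list held 10 genes, of which 8 were matched to 13 of the 43603 probes on the array. A probe counted as a member when its transcript accession carried one of the listed symbols in RefSeq. The listed gene guca1a is named guca1aa there. The opsins rho and opn1sw1 were matched to no probe and were not analysed here. Of the 8 genes, opn1mw1, gnat1, gnat2 and guca1aa were grouped as retina genes, and crx and saga as genes of both retina and pineal organ. exorh and aanat2 were grouped as pineal genes. Whether the genes grouped as retinal are also active in the pineal organ was not tested.

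There were 12 single-colour arrays in 4 groups of 3, each array holding RNA pooled from 3 brains taken 24 h after injection. PIC_G fish received Poly (I:C), a synthetic double-stranded RNA that imitates a virus, at 1 mg per kg into the body cavity, and could choose their temperature in a thermal gradient. PIC_sG fish received the same injection with no gradient. PBS fish received saline in the gradient, and Control fish were not injected. The labels place Control fish in the gradient, whereas the methods place them outside it, and the methods also give another dose, so what sets Control apart is not settled. Nothing says that pools of 1 group came from separate tanks, so p-values measure the spread between pools. In such bulk RNA, fewer cells of a type and less RNA per cell cannot be told apart.

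In a photoreceptor, light changes an opsin, the opsin activates a transducin, and the fall in cyclic GMP that follows closes the channels of the cell. Arrestin switches the opsin off, and guanylate cyclase with its activator proteins refills the cyclic GMP. The pineal organ of fish, on top of the brain, holds photoreceptor cells with a related machinery. It uses its own opsin, exo-rhodopsin, and makes melatonin at night through the enzyme encoded by aanat2.

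The arrays differed in brightness. The 75th percentile of the processed signal was 34.6 in PIC_sG replicate 3, the dimmest array, and 541 in PIC_sG replicate 1, the brightest, with the other 10 between 99.1 and 392. Well above background is a flag that the scanner software sets for each spot, and it was set for 6330 features in PIC_sG replicate 3 and for 21900 in PIC_G replicate 1. No spot was saturated. The series-level table of deposited values held the PIC_G scans under the PIC_sG names and the PIC_sG scans under the PIC_G names. The groups used here are those of the scanner files and the tables of each sample, and every direction between these groups rests on that choice.

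Signals below are processed signals in arbitrary units, and scaled levels are log2 signals minus the 75th percentile of the array. Because probes bind with different strength, a level was compared only with the same probe or gene on other arrays. A transcript was tested when a probe of it carried this flag on at least 3 arrays, and it was called when limma's adjusted p was under 0.05. Of 16136 transcripts tested, 1.43% were called between PIC_G and Control, 1.26% between PIC_sG and Control, 3.72% between PBS and Control, 0.260% between PIC_G and PBS, 1.01% between PIC_sG and PBS, and 0.00620% between PIC_G and PIC_sG. The one-way test over the 4 groups called 2.29%. Where all arrays of 1 group are said below to lie above or below those of another, the share of all transcripts that did so was not counted. Such separations of 3 arrays from 3 are descriptions and cannot be set against a background.

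RNA of the genes grouped as retinal was detected in these brain samples. Of the 8 genes on the array, 4 (opn1mw1, gnat1, gnat2 and crx) had a probe well above background on all 12 arrays. guca1aa was well above background on 11 arrays and saga on 10. The pineal genes were at the other end, with exorh well above background on 4 arrays and aanat2 on 0. None of the 7 members tested was called in any of the 6 comparisons (0 of 42 tests by limma, 2 of them with an unadjusted p under 0.05), beside the background of 0.00620% to 3.72%. The one-way test called none of them either, with adjusted p-values between 0.340 and 0.937.

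**Figure D1:**
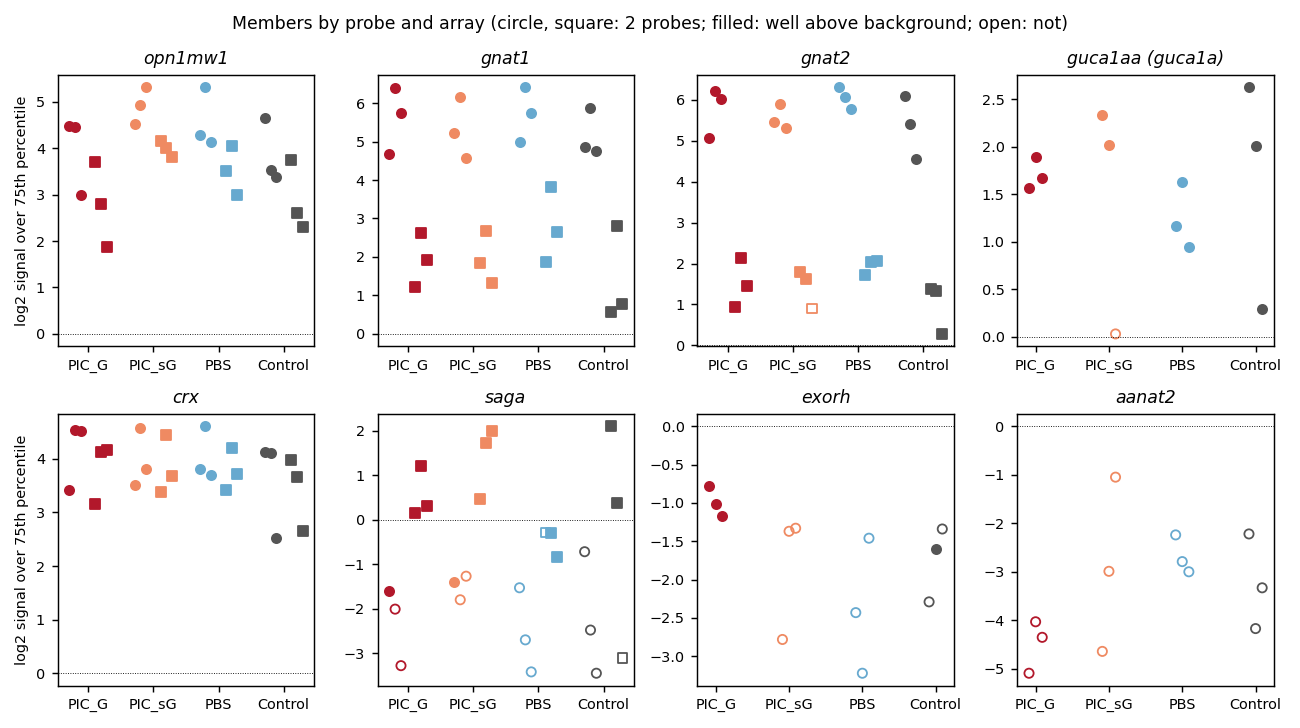
Scaled log2 level of each member by probe (circle and square where there were 2 probes) on the 3 arrays of PIC_G, PIC_sG, PBS and Control, with replicates 1 to 3 running from left to right within a group. Filled points were well above background and open points were not. The dotted line is the 75th percentile of the array. The 3 PIC_G points of exorh are filled and lie above all others, and all 12 points of aanat2 are open.

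opn1mw1 encodes a green-sensitive cone opsin. Its scaled level was 4.09, 3.63 and 2.43 in PIC_G, 4.34, 4.47 and 4.56 in PIC_sG, 3.90, 4.69 and 3.57 in PBS, and 4.20, 3.08 and 2.84 in Control. On this level over both probes, the PIC_sG arrays were tight and lay above all PIC_G and all Control arrays, while PIC_G, PBS and Control overlapped. The mean was 4.45 ± 0.11 in PIC_sG and 3.37 ± 0.73 in Control (SD, n = 3 each), a difference of 1.08 ± 0.49 (SE), with an unadjusted p of 0.0483 and an adjusted p of 0.308. PIC_G minus PIC_sG was -1.07 ± 0.49 (SE, adjusted p = 0.797), and it was 1.07 with the 2 groups exchanged. PIC_sG minus Control was then 0.01, and it was 0.46 with arrays scaled to the 50th percentile. Both probes of opn1mw1 gave like differences of group means, with a largest gap of 0.25 over the 6 comparisons. Within PIC_sG the probes moved apart. Replicates 1 to 3 had 4.53, 4.92 and 5.31 on the brighter probe and 4.15, 4.01 and 3.81 on the other. On the brighter probe Control replicate 1, at 4.65, lay above PIC_sG replicate 1. opn1mw1 has 3 near relatives on the array, opn1mw2, opn1mw3 and opn1mw4, and whether the probes bind more than one of them was not tested.

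gnat1 encodes the alpha subunit of rod transducin. The brighter of its 2 probes had signals of 7930, 24069 and 12697 in PIC_G, 20055, 21964 and 821 in PIC_sG, 3129, 25769 and 18121 in PBS, and 3588, 23020 and 7123 in Control. Each group spanned several-fold, and the lowest signal was on the dimmest array. On the scaled level over both probes, gnat1 averaged 3.76 ± 0.78 in PIC_G, 3.63 ± 0.74 in PIC_sG, 4.25 ± 0.85 in PBS and 3.27 ± 0.93 in Control (SD, n = 3 each). Its lowest p was for PBS minus Control, 0.97 ± 0.61 (SE, adjusted p = 0.386), and the PBS and Control arrays overlapped. It was 0.53 without PBS replicate 2, 1.51 without Control replicate 2, 0.51 with normexp and 0.55 with the brightest probe. Same-numbered PBS and Control arrays shared a slide, and by slide the difference was 0.72, 0.78 and 1.42. A fit with the slide as a block gave 0.97 ± 0.32 (SE, limma adjusted p = 0.0946). The 2 probes of gnat1 gave differences up to 0.84 apart, the widest gap among members with 2 tested probes.

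gnat2 encodes the cone counterpart of gnat1. Its scaled level was 3.00, 4.18 and 3.74 in PIC_G, 3.63, 3.76 and 3.11 in PIC_sG, 4.02, 4.06 and 3.93 in PBS, and 3.73, 3.37 and 2.41 in Control. The PBS arrays were nearly equal and lay above all Control arrays and all PIC_sG arrays. PBS minus Control was 0.83 ± 0.40 (SE), with an unadjusted p of 0.0628 and an adjusted p of 0.257. It was 0.45 without Control replicate 3 and 0.37 with normexp.

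guca1aa encodes an activator of the photoreceptor guanylate cyclase. Its signals were 925, 1057 and 756 in PIC_G, 2730, 1250 and 35.2 in PIC_sG, 224, 931 and 657 in PBS, and 774, 1577 and 324 in Control. The value of 35.2 came from the dimmest array, where it was not well above background. Scaled levels averaged 1.71 ± 0.16 in PIC_G and 1.25 ± 0.35 in PBS (SD, n = 3 each), and the difference of 0.46 ± 0.65 (SE, adjusted p = 0.818) was the one with the lowest p.

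crx encodes a homeobox transcription factor of photoreceptors and pineal cells. Its scaled level was 3.29, 4.33 and 4.35 in PIC_G, 3.46, 4.50 and 3.75 in PIC_sG, 3.61, 4.41 and 3.70 in PBS, and 4.05, 3.89 and 2.59 in Control. All groups overlapped, and Control replicate 3 was lowest of the 12. The lowest p was for PIC_G minus Control, 0.48 ± 0.48 (SE, adjusted p = 0.715). That difference was 0.02 without Control replicate 3.

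saga encodes an arrestin of rods and pineal cells. Of its 2 probes, one was well above background on 10 arrays and the other on 2, so the level rests on the first. Signals of that probe were 343, 659 and 295 in PIC_G, 751, 1023 and 139 in PIC_sG, 81.6, 241 and 189 in PBS, and 534, 509 and 30.6 in Control. On the scaled level Control held both the highest and the lowest of the 12 arrays, 2.1 and -3.11, and the other Control value was 0.38. All 3 PIC_sG arrays (0.47, 1.73 and 2.00) and all 3 PIC_G arrays (0.14, 1.20 and 0.31) lay above the 3 PBS arrays (-0.28, -0.31 and -0.85). One PBS array was not well above background. PIC_sG minus PBS was 1.88 ± 1.00 (SE, adjusted p = 0.367), but 0.76 with normexp and 1.03 with PIC_G and PIC_sG exchanged, and PIC_G minus PBS was 1.03 ± 1.00 (SE, adjusted p = 0.717). These SEs pool the spread of all 4 groups, and the SD was 2.65 in Control, 0.82 in PIC_sG and 0.32 in PBS. Without Control replicate 3 the SE of PIC_sG minus PBS was 0.54 (limma adjusted p = 0.147), and it was still not called.

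exorh, the pineal opsin, was the 1 member with a pattern by group in its detection flags. Its signals were 181, 141 and 106 in PIC_G, all well above background, 78.7, 119 and 13.7 in PIC_sG and 18.4, 32.2 and 123 in PBS, none of them well above background, and 25.4, 129 and 104 in Control, of which 129 was. The 3 PIC_G arrays had the highest scaled levels of the 12, -0.78, -1.02 and -1.17. Of 15992 transcripts with a value on every array, 0.813% had all 3 PIC_G arrays above the other 9. PIC_G minus PBS was 1.38 ± 0.51 (SE), with an unadjusted p of 0.0191 and an adjusted p of 0.264. Since the PBS and PIC_sG values were below the flag, they are not measured levels. For a cautious fold, each array of those groups was given the higher of the exorh level itself and the lowest level still well above background on that array. On this scaling, the PIC_G mean was then 1.72-fold higher than in PBS and 1.53-fold higher than in PIC_sG. These folds are not strict lower limits, since the lowest level came from any probe. In PBS replicate 3 it was -2.43, and exorh was below the flag at -1.46. exorh entered the test through its PIC_G arrays, which made 3 of the 4 detections, so a difference of this direction was favoured by the filter. The background also moved with the groups: negative-control spots averaged 10.5, 25.3 and 13.4 in PIC_G, 20.9, 48.9 and 20.2 in PIC_sG, 21.5, 49.8 and 51.9 in PBS, and 26.6, 46.2 and 35.5 in Control. Their part in the exorh pattern was not tested. With a normexp background correction, PIC_G minus PBS was 0.24 (limma adjusted p = 0.905). With PIC_G and PIC_sG exchanged it was 0.54 (limma adjusted p = 0.612). It was 1.76 with arrays scaled to the 50th percentile and 1.80 with quantile normalization (limma adjusted p = 0.378 and 0.433). The 2 folds were computed only with the main background and scaling.

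aanat2, the pineal enzyme of melatonin synthesis, had signals between 9.10 and 43.3 with a median of 21.8, and none was well above background. No fold is given for it.

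**Figure D2:**
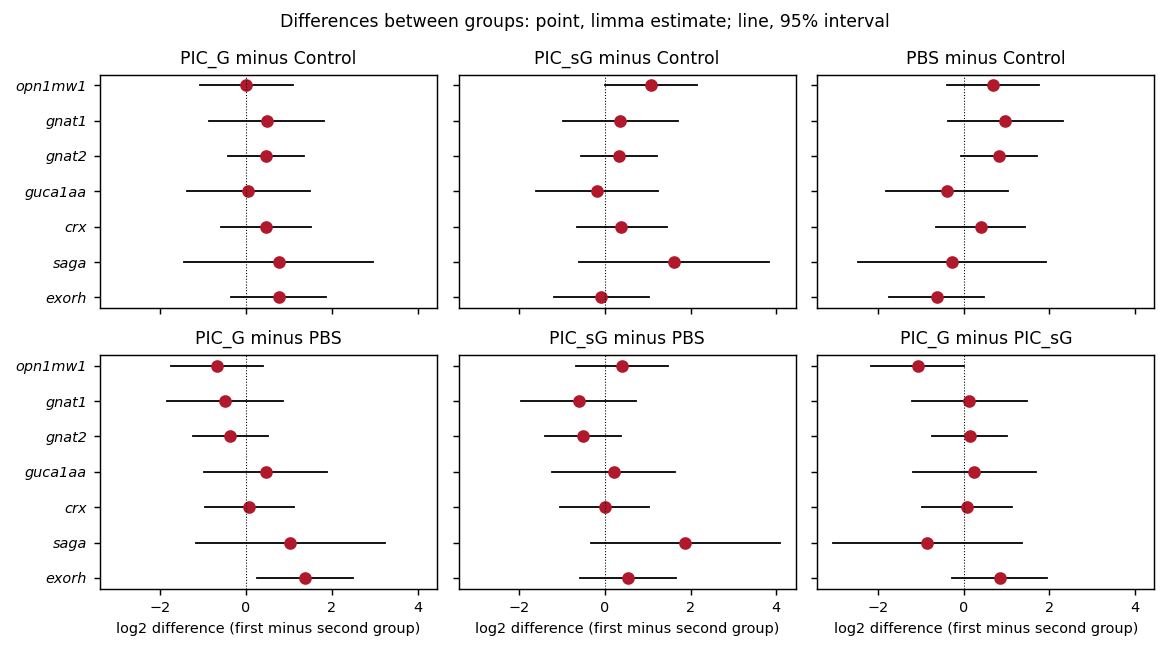
Difference in scaled log2 level of the 7 tested members in the 6 comparisons, first group minus second. Points are limma estimates and lines their 95% intervals. The intervals of opn1mw1 for PIC_sG minus Control (0.01 to 2.16) and of exorh for PIC_G minus PBS (0.27 to 2.49) lie above 0, but exorh passed the filter through PIC_G and was below the flag on all PBS arrays, so its interval is not that of a measured PBS level. No member was called after adjustment.

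The intervals were wide. For the 4 retinal genes they spanned, for example, -1.06 to 1.09 for opn1mw1 and -0.41 to 1.35 for gnat2 in PIC_G minus Control.

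The wider machinery was described with 41 more genes on the array, grouped here as rod, cone or pineal genes. Whether each gene is active in rods, in cones or in both was not tested. With the 8 members this made 49 genes, of which 41 were tested. One of them was called. arr3a, which encodes a cone arrestin, had levels of 4.0, 4.77 and 4.36 in PIC_sG, against 1.19, 2.39 and 0.94 in Control, and rose by 2.87 ± 0.58 (SE, adjusted p = 0.0389) in PIC_sG. Its PIC_G levels were 2.17, 2.44 and 2.80, and PIC_G minus PIC_sG was -1.90 ± 0.58 (SE, adjusted p = 0.797). Levels of arr3a and of rcvrn2 (recoverin) were higher on all 3 PIC_sG arrays than on the other 9, as were those of 0.882% of all transcripts. rcvrn2 had 2.51, 3.08 and 2.98 in PIC_sG, against 1.15, 1.08 and 0.74 in PBS, a difference of 1.87 ± 0.47 (SE, adjusted p = 0.0949). This difference was called with the brightest probe (2.52, adjusted p = 0.0241) and with probes found on all 12 arrays (2.52, adjusted p = 0.00711). Both settings used the same 1 of the 2 probes of rcvrn2, so they are not separate results. The difference was also called without Control replicate 1 (adjusted p = 0.0279). Another 3 genes of the rod list were well above background on all 3 PIC_G arrays and 2 PIC_sG arrays but on no PBS array. They were the rhodopsin kinase gene grk1a and the recoverin genes rcvrn3 and rcvrna. On Control arrays, grk1a and 1 probe of rcvrna had the flag on 2 and rcvrn3 on 1. Dim probes of other lists also had no PBS flag, such as those of crygm5 (lens), grk7a (cone) and tph2 (pineal). PBS arrays had the flag on 11275 to 13804 features and PIC_G arrays on 17773 to 21900. The share of all transcripts with this pattern was not counted. The fitted PIC_sG minus PBS of grk1a, rcvrn3 and rcvrna was 2.12, 3.03 and 2.38, with limma adjusted p-values of 0.0734, 0.0898 and 0.0969. With the replicate block the limma adjusted p-values were 0.0258, 0.0414 and 0.0380, and that fit called 276 of all 16136 transcripts in this comparison. Slide numbers did not pair these groups, and the genes were named after their values were seen, so no result is drawn from that fit. As PBS was below the flag, the 3 fitted values are not differences from a measured PBS level. Most flags of these genes were on PIC_G and PIC_sG arrays, so the filter favoured this direction. The call of arr3a was lost in 15 of 21 alternatives. It was lost without Control replicate 1 or 3, without any PIC_sG array and without any PIC_G array, with adjusted p-values from 0.0557 to 0.179. It was also lost with quantile normalization (adjusted p = 0.0560) and with PIC_G and PIC_sG exchanged, where PIC_sG minus Control was 0.96 (adjusted p = 0.471).

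In the comparison of PBS with Control the replicate numbers, which name the slide, paired the samples. A fit with the replicate block called 1182 of all 16136 transcripts in this comparison. Of the 41 listed genes it called 1, a smaller share than over all transcripts. That gene was opn1mw3, a green cone opsin. It had levels of 2.75, 4.07 and 3.37 in PBS, against 0.80, 2.86 and 0.55 in Control. The difference was 1.99 (adjusted p = 0.0317 with the replicate block and 0.133 without it). opn1mw2 and opn1mw4 differed by 1.39 and 1.35 (adjusted p = 0.274 and 0.219), and opn1mw1 by 0.68 (adjusted p = 0.452).

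As a group the 41 tested genes, the 7 members among them, had a median difference from Control of 0.50 in PIC_G, 0.41 in PIC_sG and 0.44 in PBS, beside medians over all transcripts of 0.17, 0.00 and 0.07. All 15 tested genes of the rod list outside the members were above Control in PIC_G and in PIC_sG, with medians of 0.50 and 0.59. In PBS 9 were, with a median of 0.21. Among them, gngt1, the gamma subunit of rod transducin, had levels of 4.28 to 5.65 over the 12 arrays, lowest in Control replicate 3. All 14 cone genes were above Control in PIC_G, 11 in PIC_sG and 12 in PBS. Control replicate 3 carried much of this: without it the rod medians were 0.17 in PIC_G, 0.21 in PIC_sG and -0.14 in PBS, and the cone medians were 0.32, 0.03 and 0.25. The medians over all transcripts were then 0.21, 0.03 and 0.08. Without that array, 10, 12 and 6 of the 15 rod genes and 14, 7 and 10 of the 14 cone genes were above Control. The share of all transcripts above Control was not counted. Among markers of other tissues, the 12 tested brain genes had median differences from Control of -0.18 in PIC_G, -0.73 in PIC_sG and -0.61 in PBS, with 10, 11 and 10 of them below Control, and the 12 tested muscle genes had -0.75, -0.80 and 0.14. Their part in the photoreceptor values was not tested. The red cone opsin gene opn1lw2 had 5.96, 6.23 and 6.15 in PIC_G, 5.73, 5.88 and 5.15 in PIC_sG, 6.30, 6.40 and 6.21 in PBS, and 6.22, 5.91 and 4.81 in Control, with Control replicate 3 again lowest. The other pineal genes included otx5, a transcription factor, with 1.18, 1.22 and 1.58 in PIC_G, 1.86, 1.37 and 0.79 in PIC_sG, 0.69, 0.49 and 0.32 in PBS, and 0.97, 0.72 and 0.63 in Control. All PIC_G and PIC_sG arrays of otx5 lay above all PBS arrays, with differences of 0.82 ± 0.31 and 0.84 ± 0.31 (SE, adjusted p = 0.284 and 0.219). The others did not share this pattern. asmt2, of the family of the last enzyme of melatonin synthesis, was lower on all 3 PIC_sG arrays than on all PBS arrays (-0.92 ± 0.37, SE, adjusted p = 0.244) and differed by -0.36 in PIC_G minus PBS. For tph2, a tryptophan hydroxylase of serotonin synthesis, PIC_G minus PBS was 1.70 (adjusted p = 0.131) and PIC_sG minus PBS 0.60, with no PBS array well above background. tph1a had -0.28 and 0.08, and neurod1 had 0.18 and -0.14. None of the 5 tested genes grouped as pineal outside the members was called. Whether their RNA came from the pineal organ or from other brain cells was not tested.

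RNA of genes grouped here under other parts of the eye was also detected in these samples. The array carried 23 lens genes, and the flag was set on all 12 arrays for 14 of them and on at least 3 arrays for 22. For genes grouped under the pigment epithelium, the cell layer behind the retina, these counts were 4 and 9 of 10, beside 7 and 12 of 13 neuronal and glial brain genes. That list included pigment genes such as dct, tyr, tyrp1b, pmela and pmelb. Which cells their RNA came from, in the eye or elsewhere, was not tested. The crystallin genes crybb2, crygm3 and cryaba, which encode proteins of the lens fibres, had scaled levels of 7.01 to 8.81, 6.94 to 8.35 and 5.04 to 7.42 over the 12 arrays. Lens genes had summed scaled levels of 9.83 to 9.88 in PIC_G, 9.33 to 9.90 in PIC_sG, 9.64 to 10.18 in PBS and 8.90 to 10.46 in Control, and none was called. The pigment epithelium list had 5.07 to 5.59 in PIC_G, 5.43 to 6.13 in PIC_sG, 5.04 to 6.18 in PBS and 3.07 to 4.67 in Control, so that all 3 Control arrays lay below the other 9. Its 1 called gene, rpe65b, of the family of the retinoid isomerase, was well above background on all 3 PIC_G arrays (-0.81, -0.15 and -0.35), 1 PIC_sG array and 2 PBS arrays, and on no Control array (-2.55, -2.22 and -1.92). With the same rule as for exorh, rpe65b was 2.41-fold higher in PIC_G than in Control, again not a strict lower limit. The limma adjusted p was 0.0362, and the filter favoured that direction. The level of rpe65b rested on 1 of its 2 probes, the only one that passed the filter. The fitted PIC_G minus Control of 1.79 was 0.60 with no filter, where the other probe was included. It was 0.62 with PIC_G and PIC_sG exchanged and 0.68 in the series table. The call was lost in 14 of 20 alternatives, 8 of which left out 1 array: any Control or PIC_G array, PBS replicate 2 or PIC_sG replicate 2 (adjusted p from 0.0529 to 0.162). Of 9 further opsins grouped here as brain opsins, none had the flag on all arrays and 3 had it on at least 3 arrays. Whether their RNA came from brain or eye tissue was not tested. The 3 found on at least 3 arrays, opn3, rgrb and opn6a, were not called in any comparison. The pituitary list gave 1 call over the 6 comparisons, higher in PIC_G than in Control, and the muscle list gave 2, higher in PBS than in Control and lower in PIC_sG than in PBS. The brain list gave 1, lower in PBS than in Control, and the blood and clock lists gave none.

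**Figure D3:**
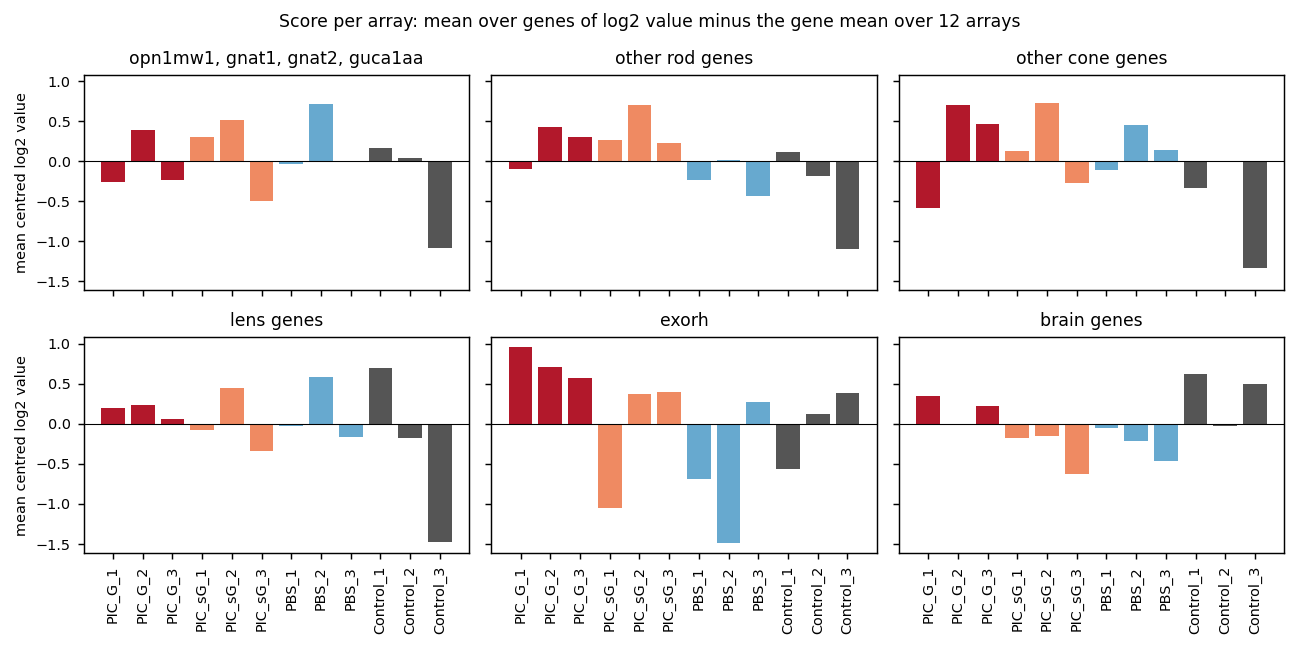
Mean over genes of the scaled log2 level minus the gene's mean over the 12 arrays, for the 4 retinal members, the other rod genes, the other cone genes, lens genes, exorh and brain genes, on each array of PIC_G, PIC_sG, PBS and Control (colours). Control replicate 3 has the lowest bar for the retinal members (-1.08), rod (-1.10), cone (-1.33) and lens (-1.47) genes, but not for exorh (0.39).

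Whether retina and pineal genes varied together was asked over the 12 arrays. A retina score, the mean of the 4 retinal members after centring each on its own mean, was -0.26, 0.39 and -0.24 in PIC_G, 0.30, 0.51 and -0.50 in PIC_sG, -0.03, 0.71 and 0.00 in PBS, and 0.16, 0.04 and -1.08 in Control. The groups overlapped. Among the pineal members only exorh could be scored, and it was 0.96, 0.71 and 0.57 in PIC_G, -1.05, 0.37 and 0.40 in PIC_sG, -0.69, -1.49 and 0.27 in PBS, and -0.56, 0.13 and 0.39 in Control. Pearson's r between the scores was -0.489 and Spearman's rho -0.490 over the 12 arrays, -0.288 without the 2 arrays farthest from the median retina score, and -0.532 for deviations from the group means. r was 0.308 with arrays scaled to the 50th percentile, -0.162 with quantile normalization and -0.00625 in the series table, so its sign and size depended on the scaling. A slide holds 4 arrays, too few for a correlation within it, and with slide means removed r was -0.453. A score of the other tested genes grouped as pineal was compared only without Control replicate 3. On those arrays the retina score had r = 0.267 with it and -0.534 with exorh. exorh and the score of the other pineal genes had r = -0.0305, so exorh does not stand for them. Most exorh values were below the detection flag, and the array scaling is shared by all genes.

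Among the 21 pairs of members, none had an adjusted p under 0.05 in a two-sided permutation test with 100000 resamples, by Pearson's r or by Spearman's rho, and 4 had an unadjusted p under 0.05 by Pearson's r. The 15 pairs without exorh had r between 0.0561 and 0.769 with a median of 0.456, all of them positive. The 6 pairs with exorh had r between -0.459 and 0.0160 with a median of -0.261. The strongest pair was gnat2 with crx (r = 0.769, rho = 0.608, permutation p = 0.00418, adjusted p = 0.0878), and its r was 0.340 without the 2 arrays farthest from the median of gnat2, Control replicate 3 and PIC_G replicate 1. gnat1 with crx had r = 0.673 (rho = 0.664, permutation p = 0.0149, adjusted p = 0.111), and 0.782 without the 2 arrays farthest for gnat1. Those were Control replicate 1 and PBS replicate 2, so Control replicate 3 stayed in. gnat1 with gnat2, the rod and the cone transducin, had r = 0.649 (rho = 0.699, permutation p = 0.0212, adjusted p = 0.111), and 0.744 without the same 2 arrays. crx with saga had r = 0.667 (rho = 0.413, permutation p = 0.0190, adjusted p = 0.111), but 0.161 without the 2 arrays farthest for crx, Control replicate 3 and PIC_sG replicate 2.

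On deviations from the group means, 4 of the 21 pairs had an adjusted permutation p under 0.05: gnat2 with guca1aa (r = 0.777), gnat2 with crx (r = 0.817), gnat2 with saga (r = 0.717) and crx with saga (r = 0.745). With slide means removed instead, no pair did, and these 4 had adjusted permutation p-values of 0.583, 0.0543, 0.583 and 0.0769. The likeness of the retinal genes rested largely on Control replicate 3. Without that array, 9 of the 15 pairs without exorh were positive. Their median r was 0.151, their highest r was 0.617, and the smallest adjusted permutation p was 0.615. The 6 pairs with exorh then had a median r of -0.216.

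**Figure D4:**
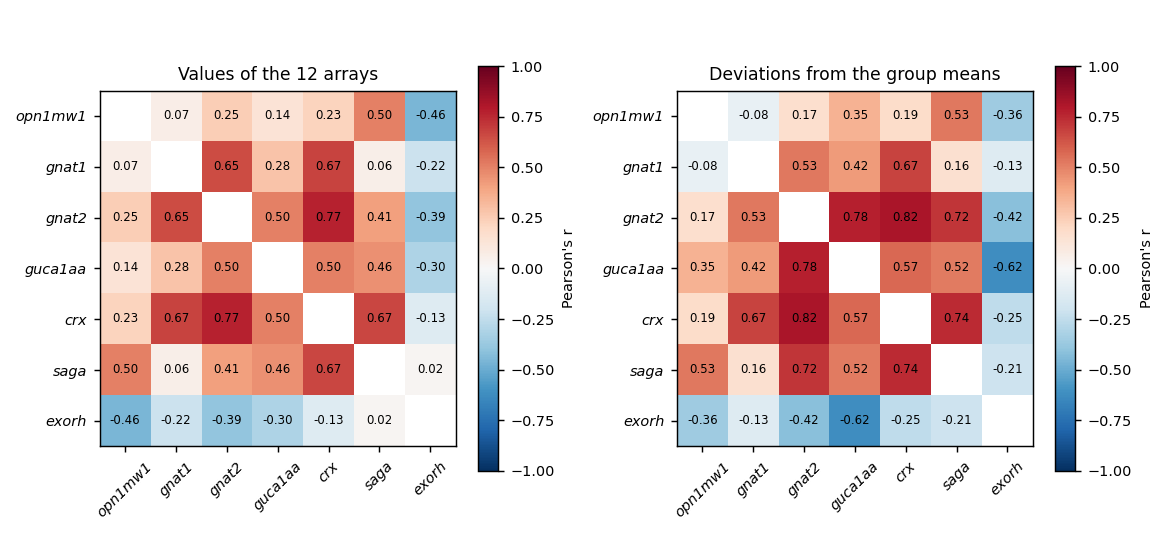
Pearson's r of each pair of the 7 tested members over the 12 arrays, on scaled log2 levels (left) and on deviations from the group means (right). Red is positive and blue negative. The row of exorh is blue except for saga on the left (0.0160), and the other pairs are red on the left, while opn1mw1 with gnat1 is negative on the right (-0.0776).

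The scores of the lists grouped under the eye were set beside that of the retinal members. The retina score correlated over the 12 arrays with the lens score (r = 0.841), the cone score (r = 0.820), the pigment epithelium score (r = 0.799) and the rod score (r = 0.665), and with the brain score at r = -0.276. Without Control replicate 3 these were 0.650, 0.554 and 0.639 for lens, pigment epithelium and cone, 0.300 for rod and 0.0325 for brain. exorh had r = -0.298 with lens, -0.135 with cone, -0.00881 with rod and 0.126 with brain. Among the lists compared over the 12 arrays, its largest values were with pituitary (r = 0.499), clock (r = 0.451) and muscle (r = -0.420) genes. The pineal and brain opsin lists were not among them. Without Control replicate 3, exorh had r = -0.682 with brain opsins, 0.522 with pituitary, 0.501 with clock and -0.475 with muscle genes. The 5 tested pituitary genes had a median difference of 2.07 in PIC_G minus Control and 1.90 in PIC_G minus PIC_sG, and their summed levels were 2.68 to 3.83 in PIC_G, 0.49 to 2.78 in PIC_sG, 1.68 to 2.91 in PBS and 0.78 to 2.07 in Control. Their part in the exorh pattern was not tested. These are descriptions over arrays that share one scaling factor each, with no test, and the part of eye tissue in the levels of the members was not tested.

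The transcripts most like each member over the 12 arrays, out of 15991 compared by Pearson's r, were also listed for the 4 members found on every array. For gnat1 they were rom1b (r = 0.938), a rod outer segment membrane protein, opn1mw4 (r = 0.935), a green cone opsin, and serpinb1l2 (r = 0.934). For crx they were crybgx (r = 0.948), of the lens crystallin family, rprmb (r = 0.940) and zgc:195245 (r = 0.934). For gnat2 they were mat2b (r = 0.951), scinlb (r = 0.939) and pdha1b (r = 0.934). For opn1mw1 they were pitpnb (r = 0.826), gins4 (r = 0.812) and a transcript with no symbol here (r = 0.833). As for brightness, r of the retina score with the log2 75th percentile was 0.336, and with the count of features well above background 0.112.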

How the data were processed

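RNA of 12 pools was hybridised to single-colour Agilent arrays. The deposited intensity values are signals that the authors took with Agilent Feature Extraction 10.7.3.1 (per the file headers). A series-level table of the authors holds the natural log of background-subtracted signal, with PIC_G and PIC_sG exchanged (values equal within 0.001). The genome build behind the probes differs from that of RefSeq, so no coordinates are given. Of 43603 probes, 16568 had a symbol, for 11484 genes.

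From gProcessedSignal, log2 minus the array's 75th percentile was computed, outlier spots were left out, probes well above background on at least 3 arrays were kept, and the median was taken over probes of a gene. At least 2 values per group were required. limma 3.58.1 in R 4.3.3 fitted the 4 groups and adjusted p by Benjamini-Hochberg over all transcripts. The permutation test was checked on simulated independent and correlated values. Array number limits the precision.

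The members and lists were chosen with earlier results of these data known. Named genes were all members, called genes of the eye, pineal and opsin lists (with under 3 called, from the 3 of highest mean level), and the 3 transcripts most like each member found on all arrays. rcvrn2, rcvrn3, rcvrna, grk1a, tph1a, tph2, opn1mw3 and opn1mw4 were named after their values were seen. Alternatives were the 50th percentile, quantile scaling, normexp (offset 50, on median signals), other filters and probe rules, the series table, exchanged groups, the replicate block and leaving out each array.

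Replicate number is the slide. On every slide Control was at position 1, PBS at 2, PIC_sG at 3 and PIC_G at 4, so group and position cannot be told apart. Deviations of same-numbered arrays correlated at 0.256 to 0.556 for PBS and Control, over 0.1 on every slide, but not in the other comparisons, where at least 1 slide was below 0.1. Sequences were not used here.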

Additional observations from a re-analysis of the deposited data

How the results depend on the processing

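No member was called in any of 21 alternatives, with smallest adjusted p-values between 0.0946 (replicate block) and 0.419, and the one-way test called none in 22. The 8 differences of members kept their direction in every alternative that gave a value, except opn1mw1 PIC_G minus PIC_sG, which was 1.07 with the arrays exchanged and 0.80 in the series table. The count of called genes in the list of 41 was 1, and it was 0 with the 50th percentile, quantile normalization, normexp and no filter, 2 with probes on all 12 arrays, 5 with the replicate block and 5 in the series table. It was 0 to 1 without each array in turn. The retina and exorh scores had r = 0.308 with the 50th percentile and -0.609 to -0.291 without each array in turn. Pairs with an adjusted p under 0.05 numbered 5 with the 50th percentile, 6 with normexp and 2 with probes on all 12 arrays. They numbered 1 with the brightest probe, 5 in the series table and 0 to 3 without each array. On deviations from the group means they numbered 4, by p-values that may be too small. These settings for pairs, and those of the one-way test other than the ordinary one-way test, were chosen after seeing the data. Scaling to the 50th percentile moved the median of all transcripts to 0.32 for PIC_G minus Control and -0.62 for PIC_sG minus Control. The causes were not tested.

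PIC_sG replicate 3, the dimmest array, limits what can be read of guca1aa, exorh and aanat2. Over all transcripts the count called for PBS minus Control was 600, but 4 without Control replicate 3 and 0 without PBS replicate 2, with normexp, with no filter and with the 50th percentile.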
